A study of Mus musculus with 7 samples.

Results

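The genes described here are 10 genes of astrocyte function: 5 that act at the astrocyte endfoot (Aqp4, Kcnj10, Mlc1, Hepacam and Slc4a4) and 5 that serve transmitter uptake and metabolism (Slc1a2, Slc1a3, Glul, Aldh1l1 and Aldoc). They were taken by symbol, and all 10 were found among the 32531 gene rows of each library and passed the filter on low counts. Every library came from midbrain of adult control mice that had no treatment. All carried the transgene of the line Stard8-TRAP ES2342, the ribosomal protein Rpl10a fused to EGFP, which by the line's name is driven from Stard8. Polysomes were pulled from the homogenate on beads with antibodies against EGFP, giving 3 libraries of immunopurified RNA (IP 1, 2 and 4), against 4 libraries of the RNA left behind (unbound 1 to 4). An IP library with the number 3 was not analysed here. The labels give neither the sex nor the exact age of the mice, nor whether animals were pooled or libraries came from separate mice, so the p-values measure the spread between these libraries, which may be technical in part.

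Astrocytes send flattened endfeet onto the walls of brain vessels, and their finer processes wrap synapses. The endfoot membrane carries channels and transporters that move water, potassium and bicarbonate between tissue and vessel, held in place by adhesion and scaffold proteins. The processes at synapses take up glutamate through sodium-driven transporters, and the cell turns it into glutamine that neurons reuse.

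Libraries held between 52052340 and 76114634 counts in genes. The series is described as a profile of neurons, yet all 18 genes of a pan-neuronal marker list were lower in IP, and 12 of the 18 when IP 2 was left out. Stard8 itself averaged 352 ± 111 CPM in the IP libraries, against 4.23 ± 0.569 CPM in the unbound ones (SD, n = 3 and 4). CPM are read counts scaled to a common library size by TMM. The index sequence in the labels was ACAGTG for replicates 1 and 2 of both groups and GTGAAA for the others, so values within an index can be given. No lane code was shared by IP and unbound libraries, so lane and group cannot be told apart. Libraries differed within the groups. IP 4 held more neuronal RNA than the other IP libraries, with a summed level of the 18 neuronal genes of 10485 CPM, against 4889 CPM in IP 1 and 5198 CPM in IP 2. Over all genes, unbound 1 and unbound 2 were both apart from unbound 3 and 4: they correlated with each other at 0.914 and with the other unbound libraries at 0.940 to 0.944, while unbound 3 and 4 correlated at 0.978 (across genes, log2 CPM). Unbound 2 was the lowest unbound library for 7 of the 10 astrocyte genes and unbound 1 for 1 of them, against 33.7% and 32.3% of all genes tested. Values without a library are given beside some results, and not for every count that changed.

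To show the sequence in front of a member with a large difference and one with a small difference, the 250 bases before the RefSeq transcription start (GRCm38.p6) are given for Slc1a3 and Kcnj10, written 5′ to 3′ along the gene. Neither window overlaps an annotated exon. Capitals mark the letters CCAAT or their reverse complement ATTGG.
Slc1a3 (chr15:8710808-8711057, minus strand): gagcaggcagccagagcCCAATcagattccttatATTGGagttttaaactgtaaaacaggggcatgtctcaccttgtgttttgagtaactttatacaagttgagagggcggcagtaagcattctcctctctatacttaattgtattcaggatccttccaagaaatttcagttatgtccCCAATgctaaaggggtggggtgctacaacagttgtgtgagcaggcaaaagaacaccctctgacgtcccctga
Kcnj10 (chr1:172340960-172341209, plus strand): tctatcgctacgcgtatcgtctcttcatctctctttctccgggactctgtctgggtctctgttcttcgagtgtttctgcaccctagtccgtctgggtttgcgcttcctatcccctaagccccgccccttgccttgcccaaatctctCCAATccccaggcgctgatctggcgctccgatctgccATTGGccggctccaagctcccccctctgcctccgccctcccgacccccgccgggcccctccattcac
The Slc1a3 window held 3 such matches, at 233, 216 and 72 bases before the start, and the Kcnj10 window held 2, at 104 and 67 bases. RefSeq entries matched 9 of the 10 members, not Aqp4, with 11 windows in all. Slc4a4 and Aldoc had 2 windows each. Annotated exons overlap the windows of Mlc1, Hepacam, Slc1a2, Glul, Aldh1l1 and Aldoc, and the Slc4a4 window that starts at 88887010. The CCAAT letters were in 6 of the 11 windows, against 33.8% of 32851 mouse windows of the same length. The letters TTGGC, a half-site of the NFI factors, searched on both strands, were in 8 of the 11, against 41.5% of all windows, and in ATTGGC they overlap a CCAAT match. None of the 11 held the SOX letters AACAAT, which 9.42% of all windows hold. These letters are a description of the windows, and no binding was measured.

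In the fit over all 17654 genes that passed the low-count filter, 3 of the 10 members rose in IP and 0 fell. Past the same threshold (adjusted p of 0.05, edgeR's quasi-likelihood test with Benjamini-Hochberg adjustment), 20.5% of all genes tested rose and 18.9% fell, so the count by itself does not set the astrocyte genes apart. The share of all genes that fell was 10.4% without IP 1 and 9.51% without IP 2. The risers were the water channel Aqp4, the membrane protein Mlc1 and the glutamate transporter Slc1a3, at 2.02-, 2.16- and 2.44-fold. All 10 members had a positive log2 fold change, with a median of 0.65, beside a median of -0.10 over all genes tested and 46.4% of those genes above 0; the sign of Kcnj10 and that of Slc1a2 each turned under 1 alternative, given below. Every IP library was above every unbound library for 5 of the 10 members (Aqp4, Mlc1, Slc1a3, Glul and Aldoc), against 25.1% of all genes tested, and below for 0, against 22.7%. IP and unbound RNA are fractions of midbrain homogenate, so these fold changes compare fractions. They measure neither the number of cells of a type nor the RNA per cell.

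**Figure D1:**
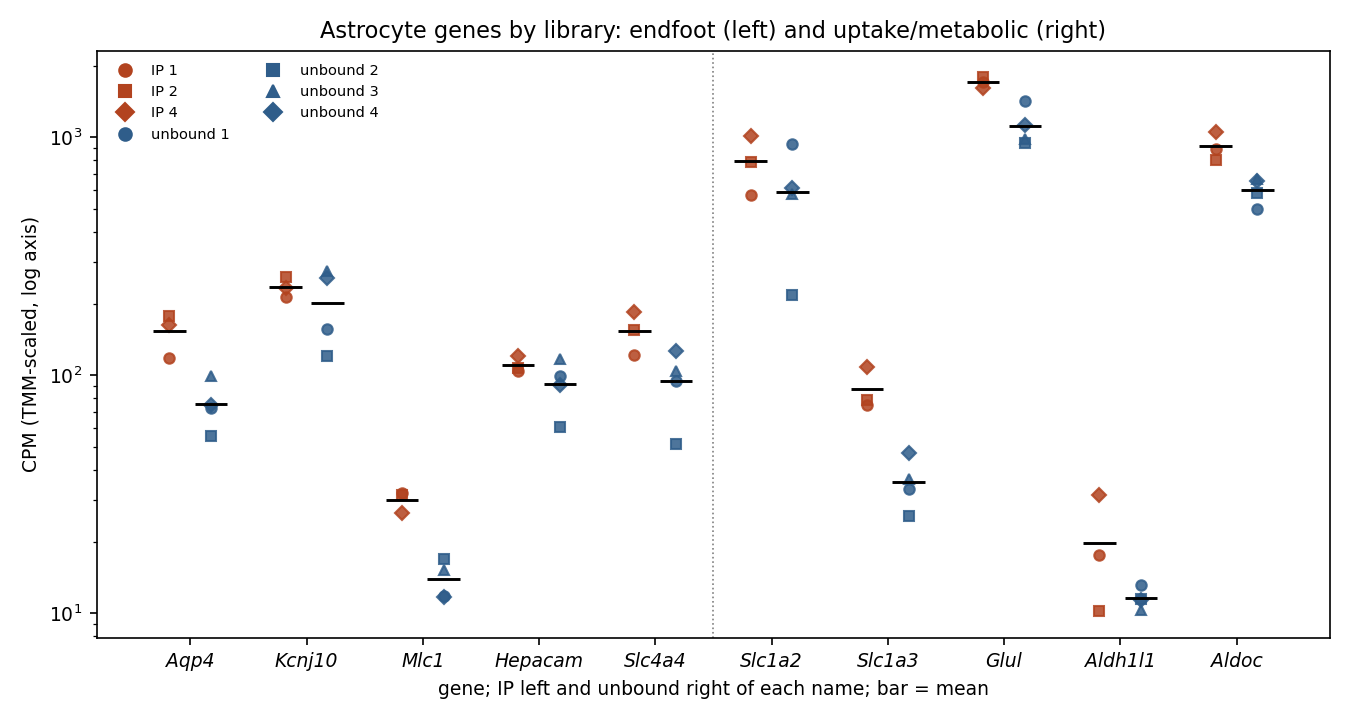
Level of each of the 10 astrocyte genes in CPM (log axis) in the 3 IP libraries (red, left of each name) and the 4 unbound libraries (blue, right), with the replicate number as the marker shape and a bar at the mean. Aqp4, Mlc1, Slc1a3, Glul and Aldoc show no overlap between groups, and unbound 2 (square) lies lowest of the unbound libraries for 7 genes, Slc1a2 at 218 CPM among them.

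Among the endfoot genes, 2 of 5 rose (1 without IP 2). Aqp4, the water channel that is densest at the membrane facing vessels (chromosome 18, 15389496 to 15410982, minus strand, GRCm38), had 118, 177 and 163 CPM in IP 1, 2 and 4, against 72.9, 55.6, 98.9 and 75.0 CPM in unbound 1 to 4. Its lowest IP library was above its highest unbound library. It averaged 153 ± 30.8 CPM over IP libraries, against 75.6 ± 17.8 CPM over unbound libraries (SD, n = 3 and 4), a log2 fold change of 1.01 ± 0.25 (SE, adjusted p = 0.00915, edgeR). Without IP 2 the value was 0.91 with adjusted p = 0.0504, which did not pass.

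Mlc1 encodes a membrane protein of astrocyte junctions whose loss causes a childhood leukoencephalopathy with brain swelling in humans. It lies on chromosome 15 (88955884 to 88979007, minus strand). It had 32.2, 31.5 and 26.5 CPM in IP 1, 2 and 4, against 11.9, 16.9, 15.2 and 11.7 CPM in unbound 1 to 4, with no overlap. The log2 fold change was 1.11 ± 0.24 (adjusted p = 0.0042, edgeR), and leaving out 1 library at a time gave values between 1.03 and 1.22, with adjusted p between 0.0019 and 0.0246. Its lowest IP library was IP 4 and its highest unbound library unbound 2. Of the 10 members, IP 4 was the highest IP library for 6 and unbound 2 the lowest unbound library for 7, against 39% and 33.7% of all genes tested. Within index ACAGTG, Mlc1 had a log2 fold change of 1.15 and Aqp4 of 1.20, and neither passed (adjusted p = 0.0592 for each, edgeR, 2 libraries a group).

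Hepacam, the adhesion molecule that binds the Mlc1 protein and brings it to cell junctions (chromosome 9, 37367351 to 37386575, plus strand), did not pass. It had 104, 108 and 121 CPM in IP 1, 2 and 4, against 99.1, 60.4, 117 and 91.0 CPM in unbound 1 to 4. The groups overlapped, since unbound 3 was above both IP 1 and IP 2. The log2 fold change was 0.27 ± 0.25 (adjusted p = 0.411, edgeR), and 0.11 without unbound 2.

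Kcnj10, the inwardly rectifying potassium channel subunit that clears potassium from around active neurons, is also made by oligodendrocytes (chromosome 1, 172341210 to 172374085, plus strand). It had 214, 260 and 233 CPM in IP 1, 2 and 4, against 157, 121, 275 and 255 CPM in unbound 1 to 4. The IP values lay inside the unbound range, below unbound 3 and, but for IP 2, below unbound 4. The log2 fold change was 0.22 ± 0.30 (adjusted p = 0.593, edgeR). It was 0.77 within index ACAGTG, 0.04 without unbound 2, and -0.17 within index GTGAAA (adjusted p = 0.616). The 15 listed oligodendrocyte genes summed to between 1344 and 2175 CPM in IP and between 5943 and 8337 CPM in unbound, with none under 1 CPM in every library of a group; their part in the Kcnj10 value was not tested.

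Slc4a4, the electrogenic sodium bicarbonate cotransporter (chromosome 5, 88886818 to 89239653, plus strand), had 121, 155 and 184 CPM in IP 1, 2 and 4, against 94.4, 51.4, 105 and 127 CPM in unbound 1 to 4. IP 1 lay below unbound 4, and all other IP values were above the unbound range. The log2 fold change was 0.70 ± 0.30 (adjusted p = 0.0886, edgeR), which did not pass. With the index sequence as a covariate it was 0.82 with adjusted p = 0.0282. Leaving out 1 library at a time gave 0.49 to 0.87, with adjusted p between 0.0579 and 0.23 (edgeR), so none of these passed.

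Among the uptake and metabolic genes, 1 of 5 rose (2 without IP 2, unbound 1 or unbound 2). Slc1a3, the glutamate transporter also known from radial glia (chromosome 15, 8634124 to 8710764, minus strand), had 75.1, 78.8 and 108 CPM in IP 1, 2 and 4, against 33.4, 25.8, 36.7 and 47.2 CPM in unbound 1 to 4. The lowest IP library was well above the highest unbound library. Its log2 fold change of 1.29 ± 0.26 (adjusted p = 0.00272, edgeR) was the highest of the 10 members, and it passed in all 19 alternatives, between 0.98 and 1.45. The RefSeq window in front of this gene is the first of the pair printed above.

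Slc1a2, the main glutamate transporter of the adult forebrain (chromosome 2, 102658659 to 102790784, plus strand), did not pass and varied most among the unbound libraries. It had 574, 790 and 1013 CPM in IP 1, 2 and 4, against 939, 218, 579 and 614 CPM in unbound 1 to 4. The coefficient of variation was 27.8% in IP and 50.1% in unbound, and unbound 1 alone was above both IP 1 and IP 2. The log2 fold change of 0.43 ± 0.41 (adjusted p = 0.436, edgeR) was 0.75 without unbound 1, 0.15 without unbound 2 and -0.055 without both IP 4 and unbound 2 (adjusted p = 0.879).

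Glul, glutamine synthetase, which turns the glutamate taken up into glutamine and is also made by oligodendrocytes (chromosome 1, 153899944 to 153909723, plus strand), had 1705, 1783 and 1607 CPM in IP 1, 2 and 4, against 1413, 947, 981 and 1122 CPM in unbound 1 to 4. The groups did not overlap, yet the log2 fold change of 0.61 ± 0.25 did not pass (adjusted p = 0.0728, edgeR). Without unbound 1 it was 0.74 with adjusted p = 0.0412. Over all fits that left out 1 library it was 0.53 to 0.74, with adjusted p up to 0.202 (edgeR). Of its exon bases, 3.49% are shared with Teddm2 on the opposite strand, which had at most 29 counts in any library. With Mir8114, on the same strand, 2.8% are shared. The part of either overlap in the Glul counts was not tested.

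Aldoc, the aldolase isozyme of astrocytes in glycolysis (chromosome 11, 78322968 to 78327781, plus strand), had 895, 803 and 1051 CPM in IP 1, 2 and 4, against 499, 585, 666 and 656 CPM in unbound 1 to 4. Here too every IP value was above every unbound value, and the log2 fold change of 0.61 ± 0.23 did not pass (adjusted p = 0.0603, edgeR). Without unbound 2 it was 0.59 with adjusted p = 0.0423. Over all fits that left out 1 library it was 0.51 to 0.70, with adjusted p up to 0.129 (edgeR).

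Aldh1l1, a folate enzyme often used to mark astrocytes (chromosome 6, 90486427 to 90600203, plus strand), was the least even member in IP. It had 17.7, 10.2 and 31.3 CPM in IP 1, 2 and 4, against 13.1, 11.5, 10.3 and 11.4 CPM in unbound 1 to 4. IP 2 was below every unbound library, and IP 4 was more than 2-fold above each of them. The log2 fold change was 0.77 ± 0.35 (adjusted p = 0.105, edgeR), 1.09 without IP 2 (adjusted p = 0.034) and 0.28 without IP 4 (adjusted p = 0.539). Within index ACAGTG it was 0.18, and within index GTGAAA, where the lone IP library is IP 4, it was 1.55. An antisense transcript that shares 11.1% of its exon bases is annotated, and the strand setting of the counting is not given in the sources used here.

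**Figure D2:**
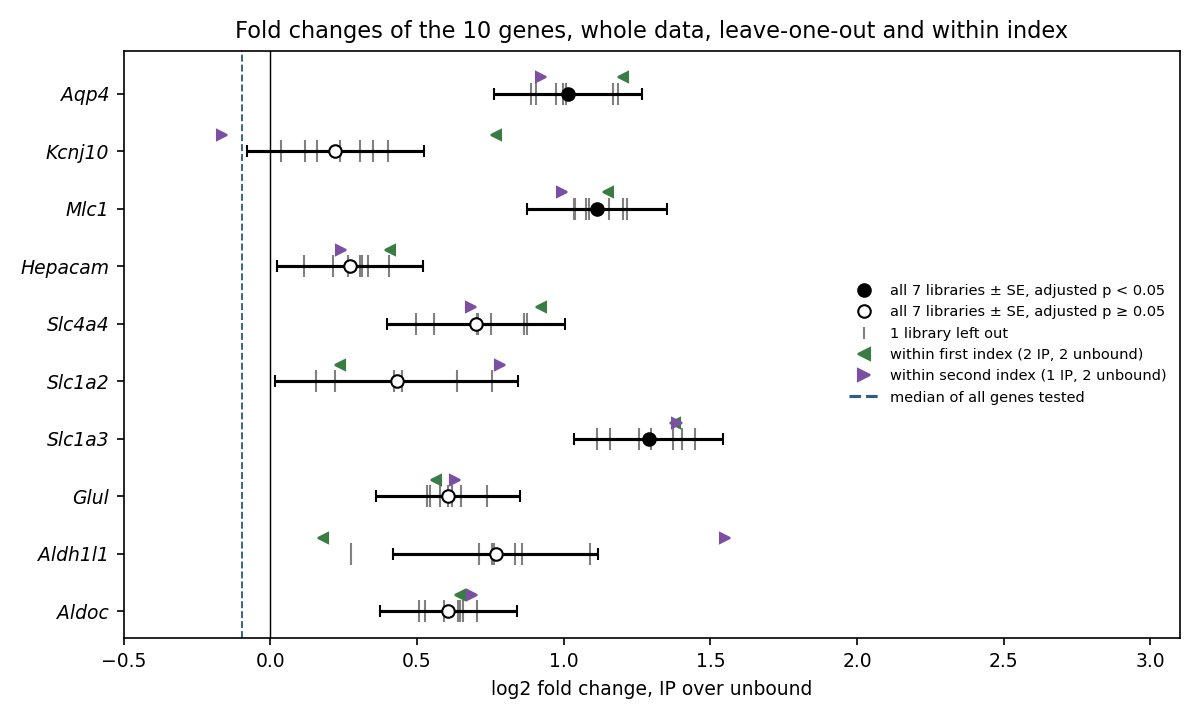
Log2 fold change of IP over unbound for the 10 genes (circles, with SE bars; filled where the adjusted p was under 0.05), with the values after leaving out 1 library at a time (grey ticks) and within each index sequence (triangles; the first index is ACAGTG, the second GTGAAA). Aqp4, Mlc1 and Slc1a3 stay between 0.89 and 1.45 when 1 library is left out, while Aldh1l1 spans 0.28 to 1.09 and Slc1a2 0.15 to 0.75.

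The fold changes of the endfoot genes and of the uptake and metabolic genes covered overlapping ranges. The median log2 fold change was 0.70 for the endfoot genes and 0.61 for the uptake and metabolic genes, and each set held both members near 1 or above and members under 0.5. Summed over the endfoot genes, the level was 589, 731 and 727 CPM in IP 1, 2 and 4, against 435, 305, 610 and 560 CPM in unbound 1 to 4. These groups overlapped, as IP 1 was below unbound 3. Summed over the uptake and metabolic genes, it was 3266, 3465 and 3811 CPM in IP 1, 2 and 4, against 2897, 1788, 2274 and 2451 CPM in unbound 1 to 4, with no overlap. Glul, Aldoc and Slc1a2 made up most of that second sum. Together the 10 genes took between 0.408% and 0.459% of gene counts in IP and between 0.179% and 0.349% in unbound.

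Levels were compared between genes per kilobase of annotated exon, from the union of all GENCODE M21 exons of a gene. The order of the 10 genes by mean level was the same in both groups. Glul led with 511 ± 26.5 CPM per kb in IP and 336 ± 63.8 in unbound (SD, n = 3 and 4), followed by Aldoc with 281 ± 38.3 in IP and 184 ± 23.7 in unbound. Then came Slc1a2 (60.3 ± 16.7 in IP and 44.7 ± 22.4 in unbound), Kcnj10 (43.6 ± 4.26 in IP and 37.4 ± 13.8 in unbound) and Hepacam (33.1 ± 2.67 in IP and 27.4 ± 7.05 in unbound), whose neighbouring unbound values lay within 1 SD of each other. Aqp4 had 24.5 ± 4.93 CPM per kb in IP and 12.1 ± 2.86 in unbound, and Slc4a4 had 14.2 ± 2.9 in IP and 8.73 ± 2.93 in unbound. Mlc1 and Slc1a3 did not differ beyond their spread, at 10.7 ± 1.12 and 10.2 ± 2.14 in IP and at 4.96 ± 0.912 and 4.19 ± 1.04 in unbound. Aldh1l1 was lowest, with 4.37 ± 2.37 in IP and 2.56 ± 0.26 in unbound. The 3 genes that rose were at places 6, 8 and 9 of the 10, and the exon set the submitters counted is not given in the sources used here.

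Count ratios of a pair of genes inside a library do not depend on how libraries are scaled, and 8 pairs were compared. The ratio is of counts and not corrected for length, so its difference between groups is what is read. Aldoc to Aldoa, the astrocytic against the general aldolase, had ratios of 1.71, 1.82 and 1.79 in IP 1, 2 and 4, against 0.639, 0.455, 0.695 and 0.748 in unbound 1 to 4. All IP libraries held more Aldoc than Aldoa counts, and all unbound libraries held fewer. The mean log2 ratio was higher in IP by 1.51, a 2.85-fold difference (2-sided exact permutation test over 35 splits, p = 0.0286, the smallest this design allows, and 0.114 adjusted over the 8 pairs). Leaving out libraries, or adding up to 10 counts to each gene, moved it between 1.35 and 1.60. Aldoa was the 1 listed symbol with 2 entries in the GENCODE annotation, so its count is uncertain. Reads matching several genes were more frequent in unbound than in IP files. Reads aligned to several places were on average more frequent in IP files (36.5%, against 24.5% in unbound files). The part of these reads in the ratio was not tested. In the fit over all genes, Aldoa itself fell, with 517 ± 71.9 CPM in IP and 976 ± 219 CPM in unbound (log2 fold change -0.92 ± 0.26, adjusted p = 0.018, edgeR).

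Aqp4 to Kcnj10, the endfoot channels for water and potassium, had ratios of 0.553, 0.683 and 0.698 in IP 1, 2 and 4, against 0.465, 0.46, 0.36 and 0.294 in unbound 1 to 4. The groups did not overlap, and the mean log2 ratio was higher in IP by 0.73 (exact permutation p = 0.0286, 0.114 adjusted over the 8 pairs). Hepacam to Mlc1, the binding partners, had ratios of 3.23, 3.42 and 4.58 in IP 1, 2 and 4, against 8.36, 3.58, 7.68 and 7.79 in unbound 1 to 4. Unbound 2 lay among the IP values, the other unbound libraries above them, and the log2 difference was -0.82 (exact permutation p = 0.0857, adjusted 0.229). Slc1a3 to Slc1a2 had ratios of 0.131, 0.0997 and 0.107 in IP 1, 2 and 4, against 0.0356, 0.118, 0.0634 and 0.0769 in unbound 1 to 4, again with unbound 2 at the IP level (log2 difference 0.73, exact permutation p = 0.171, adjusted 0.343). The other 4 pairs (Slc4a4 to Aqp4, Glul to Slc1a2, Aqp4 to Slc1a2, and the channel subunits Kcnj16 to Kcnj10) overlapped between groups, with log2 differences between -0.27 and 0.56 and adjusted p between 0.411 and 0.943. None of the 8 pairs passed after adjustment.

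**Figure D3:**
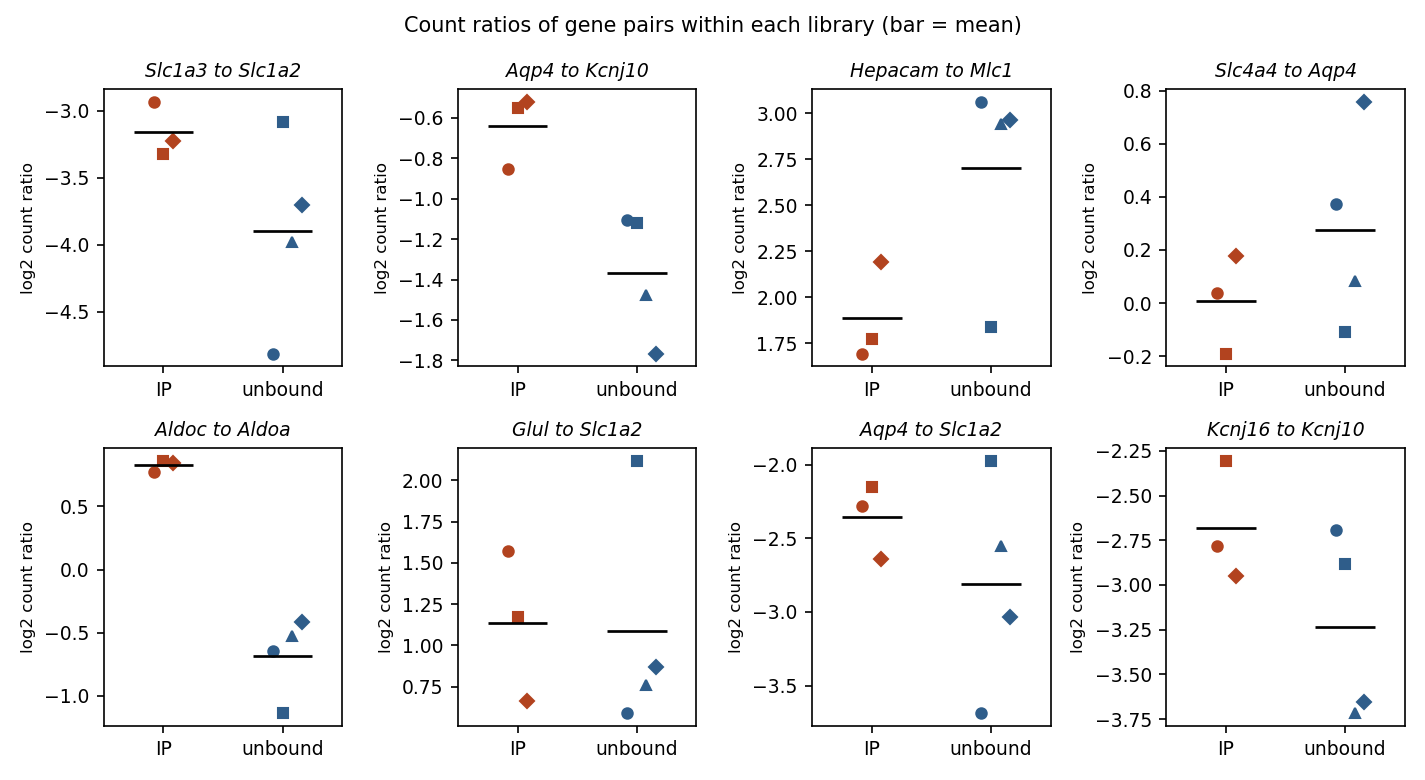
Log2 ratio of the counts of a pair of genes in each IP library (red, left) and unbound library (blue, right), with a bar at the mean; circles are replicate 1, squares 2, triangles 3 and diamonds 4. Aldoc to Aldoa and Aqp4 to Kcnj10 show no overlap, with mean differences of 1.51 and 0.73 on the log2 scale. For Hepacam to Mlc1 unbound 2 lies apart from the other unbound libraries. For Slc1a3 to Slc1a2 unbound 1 is the lowest and unbound 2 the highest unbound library.

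Partners of the endfoot proteins were taken from a list of 18 genes of the dystrophin complex, gap junctions, the sodium pump and associated channels. Of these, 12 rose in IP and 3 fell, with a median log2 fold change of 1.01, beside -0.10 over all genes tested. The shares were 66.7% and 16.7%, against 20.5% and 18.9% of all genes tested. Without IP 1, and also without IP 2, 1 partner fell instead of 3. The number of partners that rose was 9 without IP 2 and 10 without IP 1 or unbound 3. Dystrophin, Dmd, which links the membrane complex that holds Aqp4 in place and is also made by muscle cells, had 315 ± 17.2 CPM in IP and 100.4 ± 12.2 CPM in unbound (log2 fold change 1.65 ± 0.21, adjusted p = 0.000166, edgeR). The sodium pump subunit Atp1b2 had 994 ± 50.1 CPM in IP and 403 ± 114 CPM in unbound, and the channel subunit Kcnj16, which pairs with Kcnj10, had 37.9 ± 12.6 CPM in IP and 20.4 ± 3.24 CPM in unbound (adjusted p = 0.00436 and 0.0218, edgeR). The chloride channel Clcn2, which binds the Hepacam protein, fell, with 2.99 ± 2.03 CPM in IP and 11.4 ± 3.8 CPM in unbound (log2 fold change -1.93 ± 0.49, adjusted p = 0.0107, edgeR).

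Vessel cell markers rose over this same contrast, and several endfoot partners are also made by muscle or vessel cells. The 18 endothelial genes summed to between 2422 and 3126 CPM in IP and between 27.4 and 30.9 CPM in unbound, and the 16 pericyte and smooth muscle genes to between 4440 and 6209 CPM in IP and between 37.2 and 58.5 CPM in unbound. All 18 and all 16 rose, with medians of 6.99 and 6.48, while 20.5% of all genes tested rose. In every unbound library, 6 of the endothelial genes and 3 of the mural genes were under 1 CPM. The part of these cells in the values of the endfoot genes and their partners was not tested.

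Of 13 other genes of glutamate and glutamine handling, 4 rose and 2 fell, with a median log2 fold change of -0.21. The shares were 30.8% and 15.4%, against 20.5% and 18.9% of all genes tested. The number that fell was 1 without IP 1, IP 2, unbound 3 or unbound 4, and 5 without unbound 2 or without IP 4. Slc38a5, an amino acid carrier that moves glutamine, rose by 6.42 ± 0.70 on the log2 scale (adjusted p = 5.48e-05, edgeR), with 1796, 1084 and 1653 counts in IP 1, 2 and 4, against 5, 19, 37 and 6 counts in unbound 1 to 4. The medians of the endothelial list and of the pericyte and smooth muscle list were 6.99 and 6.48. The part of vessel cells in the Slc38a5 value was not tested. The aspartate transaminase Got1 fell, with 157 ± 52.4 CPM in IP and 444 ± 55 CPM in unbound (adjusted p = 0.00185, edgeR). The most abundant gene, the glutamate dehydrogenase Glud1, did not pass, at 0.47 ± 0.23 on the log2 scale (adjusted p = 0.12, edgeR).

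In the list of glycogen, glycolysis and folate genes, 5 of 17 rose and 2 fell (1 fell without IP 1), with a median of 0.48. The shares were 29.4% and 11.8%, against 20.5% and 18.9% of all genes tested. The glycogen phosphorylase Pygm rose, with 54.2 ± 8.12 CPM in IP and 15.4 ± 5.85 CPM in unbound (log2 fold change 1.82 ± 0.33, adjusted p = 0.00152, edgeR). The lactate dehydrogenase subunit Ldhb fell, with 264 ± 21.9 CPM in IP and 619 ± 82 CPM in unbound (-1.23 ± 0.23, adjusted p = 0.00206, edgeR), as did Aldoa. Among 20 paralogs of the members, 4 rose and 5 fell, with a median of -0.57. In that list, 3 fell without IP 1, 8 fell without IP 4, and 2 rose without IP 2. The paralog shares, 20% higher and 25% lower, were near those of all genes tested. The paralog that rose with the smallest p was Kcnj8, a potassium channel subunit of pericytes, by 8.13 ± 0.82 (adjusted p = 3.15e-05, edgeR).

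Among 26 other astrocyte markers, 14 rose and 0 fell past the threshold in edgeR, and the median log2 fold change was 0.76. The number that rose was 9 without IP 2 and 10 without IP 1 or IP 4. At an unadjusted p of 0.05, with DESeq2 or with limma voom, 0 fell. Log2 fold changes ran from -0.44 to 2.98. Every IP library was above every unbound library for 18 of the 26 and below for 1, against 25.1% and 22.7% of all genes tested. The summed level of the 26 was between 3961 and 4200 CPM in IP and between 1729 and 2344 CPM in unbound, and Ndrg2 alone made up a large part of it. Ndrg2, the most abundant, had 1970 ± 129 CPM in IP and 811 ± 51.2 CPM in unbound (log2 fold change 1.28 ± 0.23, adjusted p = 0.00135, edgeR). Mfge8, a secreted protein that vessel wall cells make too, had 62.8 ± 4.07 CPM in IP and 7.95 ± 2.52 CPM in unbound (2.98 ± 0.28, adjusted p = 1.92e-05, edgeR). Microglia and macrophage genes rose in 16 of 16, with sums between 1577 and 1630 CPM in IP and between 66.9 and 105 CPM in unbound. Oligodendrocyte genes fell in 14 of 15, and oligodendrocyte precursor genes in 9 of 10 (sums between 149 and 217 CPM in IP, and between 373 and 544 CPM in unbound). Without IP 1, and also without IP 2, 6 of the precursor genes fell. Ependymal and choroid plexus genes (ependymal cells also make Aqp4) gave 4 higher and 1 lower of 11 tested (2 higher without IP 1, and 0 lower without IP 1, IP 2, unbound 3 or unbound 4). Their sums were 213, 153 and 436 CPM in IP 1, 2 and 4, and between 163 and 298 CPM in unbound. Fibroblast and meningeal genes gave 7 higher and 0 lower of 12 (2 lower without IP 4, 1 without unbound 2, 1 at an unadjusted p of 0.05, 1 with DESeq2 and 0 with limma voom). Their sums were 589, 560 and 1450 CPM in IP 1, 2 and 4, against 314, 863, 749 and 910 CPM in unbound 1 to 4. Over all genes tested, 20.5% rose and 18.9% fell. The part of these other cell types in the astrocyte values was not tested.

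**Figure D4:**
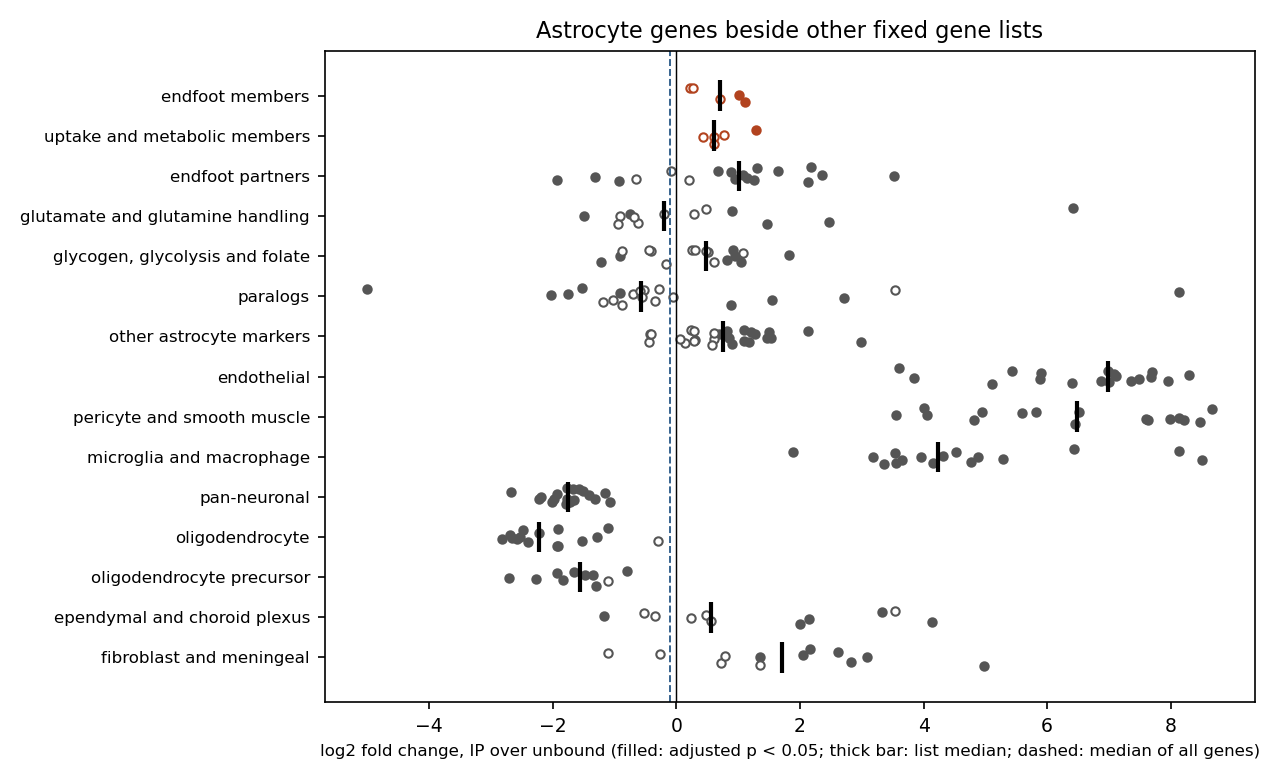
Log2 fold change of IP over unbound for every tested gene of the fixed lists, filled where the adjusted p was under 0.05, with the list median as a thick bar and the median of all genes as a dashed line. The astrocyte members (red) lie between 0.22 and 1.29, between the vessel lists, with medians of 6.99 and 6.48, and the neuronal and oligodendrocyte lists, with medians of -1.75 and -2.23.

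Genes whose pattern over the 7 libraries was most like that of a member were found by the root mean square difference of centred log2 CPM, among genes with a mean of at least 5 CPM (12024 candidates). Among the 5 genes nearest to Aqp4 were Fgd1, Cnpy4, Dlg5 and E030003E18Rik, with differences between 0.0968 and 0.134. Among the other members, Slc4a4 and Slc1a3 came closest to Aqp4, at 0.298 and 0.301 and at ranks 360 and 379. For Slc1a2 the nearest were Ago2, AK171960, Irs1, Nav1 and Dvl3, between 0.179 and 0.214, and the closest member was Slc4a4 at 0.371 and rank 200. Within the 10 genes, Kcnj10 and Hepacam were the most alike pair, at 0.246, and Mlc1 and Slc1a2 the least alike, at 0.835.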

How the data were processed

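The authors deposited whole-number read counts per gene symbol, 1 file per library, without normalization. Per the submitters' processing notes, the tools were STAR 2.0.0e and HTSeq and the build was mm10. No source used here gives the annotation, the strand setting or any filter. A further 6 rows of each file name no gene and were left out of library sizes. Reads matching several genes made up 1.55% ± 0.107 of IP files and 9.95% ± 1.89 of unbound files, and reads aligned to several places 36.5% ± 3.28 and 24.5% ± 7.28 (SD, n = 3 and 4).

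From the counts, filterByExpr, TMM scaling and the robust quasi-likelihood test of edgeR 4.0.16 (R 4.3.3) compared IP with unbound over 17654 genes. The SE is the log2 fold change divided by the root of F. At 3 counts the floor was between 0.0376 and 0.059 CPM, far below every member; each member had at least 542 counts in every library, and precision is limited by the libraries, not by counting. No pair of libraries of 1 group agreed within sampling noise (chi-square per degree of freedom 77.7 to 1206). Coordinates and exon lengths are from GENCODE M21 (GRCm38, the build named mm10), which held 1 entry for 213 of 214 listed genes (all but Aldoa). Alternatives were other scalings, filters and tools (DESeq2 1.42.0, limma 3.58.1 voom), a replicate block, the index, and left-out libraries. Pairs were compared by exact permutation.

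The members and lists were chosen with earlier results of these data known. The text names all members and the genes of the pairs. Of each pathway list and of the other astrocyte markers it names the gene with the smallest p, the most abundant gene, and the called gene with the smallest p against the list's majority. It also names the 5 genes nearest to Aqp4 and to Slc1a2, of which 1 is not reported here.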

Additional observations from a re-analysis of the deposited data

Results flagged for a closer look

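The 4 unbound libraries were searched for a library far from the other 3 in 33 sets of values (members, pair ratios and summed lists); by chance about 1 such set in 20 is marked. All 3 sets marked had unbound 2 as the far library. Its log2 ratio of Hepacam to Mlc1 counts was 1.84, against 2.94 to 3.06 in the other unbound libraries. Its summed level of the endfoot partners was 1009 CPM, against 1421 to 1480 CPM. Its summed level of the glycogen, glycolysis and folate genes was 2472 CPM, against 1891 to 1946 CPM.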

How the results depend on the processing

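Aqp4, Mlc1 and Slc1a3 kept their direction in all 19 alternatives and passed in 17, 18 and 19 of them. Hepacam passed in none and Kcnj10 in none. Leaving out 1 library at a time, 2796 to 4050 genes were higher and 1751 to 3632 lower (1751 without IP 2, 1899 without IP 1), 1 to 2 endfoot members and 1 to 2 uptake and metabolic members were higher, and the log2 fold changes were 0.89 to 1.19 for Aqp4, 0.53 to 0.74 for Glul, 0.28 to 1.09 for Aldh1l1 and 0.51 to 0.70 for Aldoc. Uptake and metabolic members higher numbered 3 with DESeq2 (Glul 0.61, Aldoc 0.61) and with limma voom (Glul 0.62, Aldoc 0.61), 2 with library size only (Aldoc 0.70), 2 with the index as covariate (Aldoc 0.66; Slc4a4 passed at 0.82), and 2 without IP 4 and unbound 2 (Glul 0.58; Slc1a2 turned to -0.055). Within index ACAGTG, 2190 genes were higher and 1650 lower, and 0 endfoot members passed (Aqp4 1.20, Mlc1 1.15), with 2 libraries a group. Within index GTGAAA, 4 uptake and metabolic members passed (Slc1a2 0.78, Aldh1l1 1.55 and Aldoc 0.69 among them), as did Slc4a4 at 0.69, while Kcnj10 turned to -0.17; IP 4 is the single IP library there, and its spread is taken to equal that of the unbound libraries. Fewer libraries entered the fits that leave some out; for the other changes the cause was not tested. Over the alternatives, 12.4% to 24.2% of all genes tested were higher and 9.34% to 23.4% lower. With library size only, the median of all genes moved to 0.01. No pair ratio passed after adjustment, so its alternatives are values only.

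The replicate numbers were not taken as pairs, since the labels state no pairing. The deviations of same-numbered libraries from their group means correlated at -0.0271, 0.0423 and 0.158, and IP 1 correlated best with unbound 2 (0.199). With so few libraries, these correlations cannot show whether libraries of the same number shared a homogenate. With a replicate block, 3154 genes were higher and 2618 lower, and no member's call changed (Aqp4 1.16, Mlc1 1.17, Slc1a3 1.33).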
